A study of Mus musculus with 2 samples.

Results

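Of the 2202 microRNA genes listed for mouse gastrocnemius, the large calf muscle, 37 carry microRNAs best known from other organs. They were chosen by name, from GENCODE mouse release 21 on mm10, without use of their counts in the rule. The 5 lists hold 7 epithelial, 4 liver, 4 pancreas, 8 neuronal and 14 pluripotent cell microRNA genes, and all 37 were matched in the files. The samples form 1 group of 2 small RNA libraries, labelled biological replicates 1 and 2. The muscle came from B6CASTF1/J females at 2 months of age, a first-generation cross of the strains C57BL/6J and CAST/EiJ, with no treatment named. The labels number 2 females under a single donor code, so whether the libraries come from separate animals is not settled. With 1 library on each side, p-values do not measure the spread between animals in either case. No second condition exists, and each comparison below sets the libraries against each other. In whole muscle, fewer cells of a type and less RNA per cell cannot be told apart.

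A microRNA is cut from a hairpin transcript and pairs with target messenger RNAs mainly through its seed, bases 2 to 8 of the mature strand. Some microRNAs are made at very high levels in a single lineage. The miR-200 family represses the Zeb factors and keeps cells epithelial, miR-203 and miR-205 belong to skin and other layered epithelia, and miR-122 is the dominant microRNA of hepatocytes. The microRNAs of the Mir290 and Mir302 clusters promote the cell cycle of embryonic stem cells, and those of the Mir9 and Mir124a genes are abundant in brain. Muscle fibres are not known as a main source of these microRNAs.

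Mature sequences of 33 of the 37 genes were taken from RefSeq (GRCm38.p6, the build of mm10). The sequences that follow are those of leading members, those that make up shared seeds, and those that several loci carry; capitals mark the seed. In the miR-200 family the arms listed here fall into 2 seed groups that differ within the seed, the first 3 lines sharing one and the next 2 the other.
mmu-miR-200b-3p: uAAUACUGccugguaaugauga
mmu-miR-200c-3p: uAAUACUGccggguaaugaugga
mmu-miR-429-3p: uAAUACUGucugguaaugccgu
mmu-miR-200a-3p: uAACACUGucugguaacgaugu
mmu-miR-141-3p: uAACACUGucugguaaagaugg
The next 4 are of other epithelial and liver members and have 4 different seeds.
mmu-miR-203-3p: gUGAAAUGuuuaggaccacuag
mmu-miR-205-5p: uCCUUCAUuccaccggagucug
mmu-miR-192-5p: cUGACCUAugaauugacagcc
mmu-miR-194-5p: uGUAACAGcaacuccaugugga
The 2 neuronal sequences shown are each carried whole by more than 1 gene, and the last 3 lines, from the Mir290 and Mir302 clusters, share a seed that not all microRNAs of these clusters have.
mmu-miR-129-5p: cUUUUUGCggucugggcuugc
mmu-miR-9-5p: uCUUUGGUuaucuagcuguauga
mmu-miR-294-3p: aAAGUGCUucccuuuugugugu
mmu-miR-302b-3p: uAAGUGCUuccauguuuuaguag
mmu-miR-302d-3p: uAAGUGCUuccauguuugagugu

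Depth set what could be read. The microRNA genes took 1950204 own-strand counts in replicate 1 and 2291821 in replicate 2, so 1 count is 0.513 and 0.436 CPM (counts scaled to the library total of own-strand counts). A count of 0 allows up to 3 counts, 1.54 and 1.31 CPM, for a gene whose reads can be placed. Reads aligned to several places, 70.1% and 72.3% of all reads listed, are in no gene. Reads amplified from 1 molecule are not independent, and all intervals cover counting error only. Mir143, a smooth muscle microRNA and the gene of highest mean, although under Mir126a in replicate 2, had 145273 ± 71987 CPM (SD, n = 2), and Mir206, made in skeletal muscle fibres, 34321 ± 10766 CPM (SD, n = 2).

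All members together had 1103 counts in replicate 1 and 713 in replicate 2, or 566 CPM (exact Clopper-Pearson 95% interval 533 to 600) and 311 CPM (289 to 335). More than 10 counts in each library were found for 5 members, Mir203, Mir192, Mir122, Mir194-2 and Mir200c. That is 13.5% of the 37, against 12.4% of all 2202 genes, a share near the background. More than 3 counts in each library were found for 8 members, which adds Mir129-1, Mir205 and Mir375 (21.6%, against 14.9% of all genes). In at least 1 library, 17 members had more than 3 counts (45.9%, against 16.7%) and 9 had more than 10 (24.3%, against 13.9%). No count was found in either library for 17 members (45.9%), against 73.5% of all genes. The libraries were unequal here, since 15 members had more than 3 counts in replicate 1 (40.5%, against 15.8%) and 10 in replicate 2 (27.0%, against 15.7%). More than 10 counts were reached by 9 members in replicate 1, against 13.2% of all genes, and by 5 in replicate 2, against 13.0%.

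**Figure D1:**
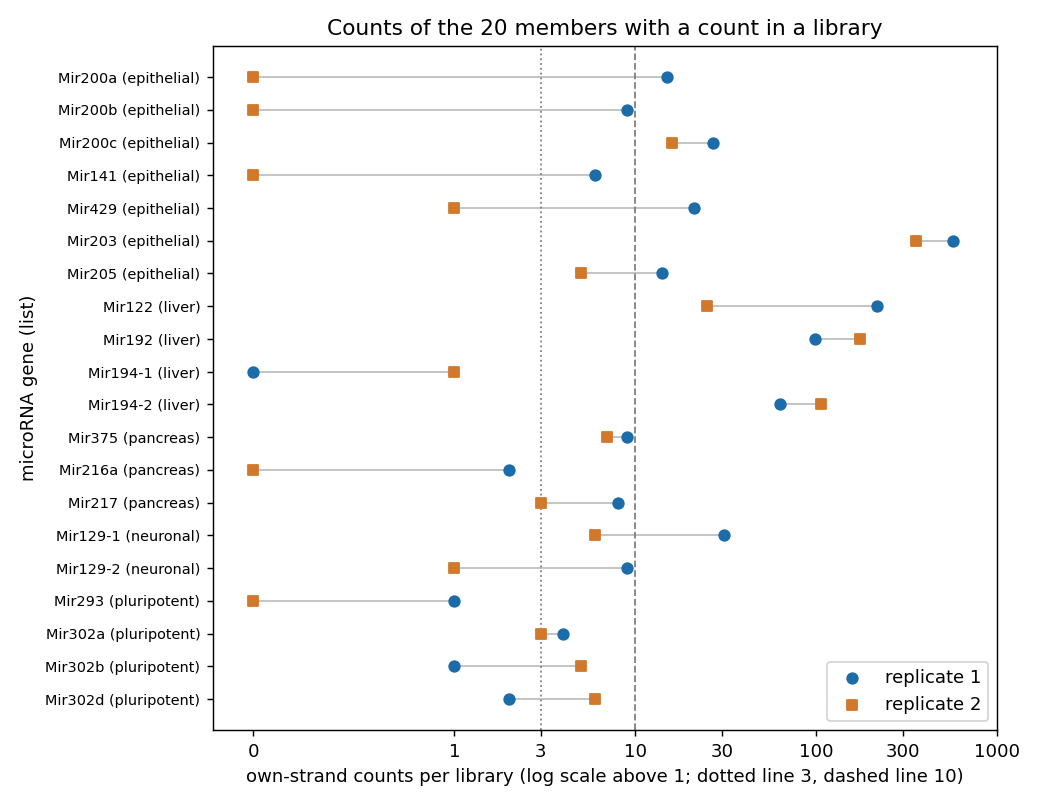
Own-strand counts per library (x axis, log scale above 1) of the 20 members with any count, with circles for replicate 1 and squares for replicate 2; the dotted line is at 3 counts and the dashed line at 10. Mir203, Mir192, Mir122, Mir194-2 and Mir200c lie beyond 10 in both libraries, and all 7 epithelial members are further right in replicate 1.

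The label of a background level held for most of the members whose reads can be placed, and not for the leading ones. Among the 23 members that share no long stretch with another microRNA gene, 4 had more than 10 counts in each library. Over all genes without such a stretch, it was 206 of 1115. More than 3 counts in each library were found for 6 of the 23, against 249 of the 1115. The members were near the share of all such genes at both limits. For the 14 members that share such a stretch, a low count cannot decide this, because reads confined to the stretch are in no gene. By mean CPM, Mir203 ranked 116 of 2202, Mir192 166, Mir122 169 and Mir194-2 199. The skeletal muscle microRNA Mir206 was 154-fold above Mir203 and 544-fold above Mir192. Other muscle genes were not so far above. Mir486 had 549 and 1006 CPM and Mir499 315 and 2497 CPM, both over Mir203 in each library. Mir1a-2 had 176 and 247 CPM and Mir133a-1 38.5 and 57.6 CPM, under Mir203 in replicate 1. Apart from Mir206, the other striated muscle markers counted below were also under Mir203 there. Mir1a-1 and Mir133a-2 are listed as further genes of like name. Reads that aligned to both genes of a pair are in no gene, so these levels can be too low. Next among the members came Mir200c at rank 258, Mir129-1 at 263, Mir429 at 283, Mir205 at 296 and Mir200a at 304. The other 11 members with a count ranked 305 or lower. Reads on the opposite strand were also counted for the 30 members with no microRNA gene there, and their origin was not tested. Only Mir203, Mir200a and Mir122 had such reads, 18 in all in replicate 1 and 7 in replicate 2. Over all microRNA genes such reads numbered 33 and 26, so these 3 members held 54.5% and 26.9% of them. At Mir203 they numbered 9 and 1, at Mir200a 5 and 3 and at Mir122 4 and 3. For Mir200a in replicate 2, the 3 opposite-strand reads stand beside 0 on its own strand.

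**Figure D2:**
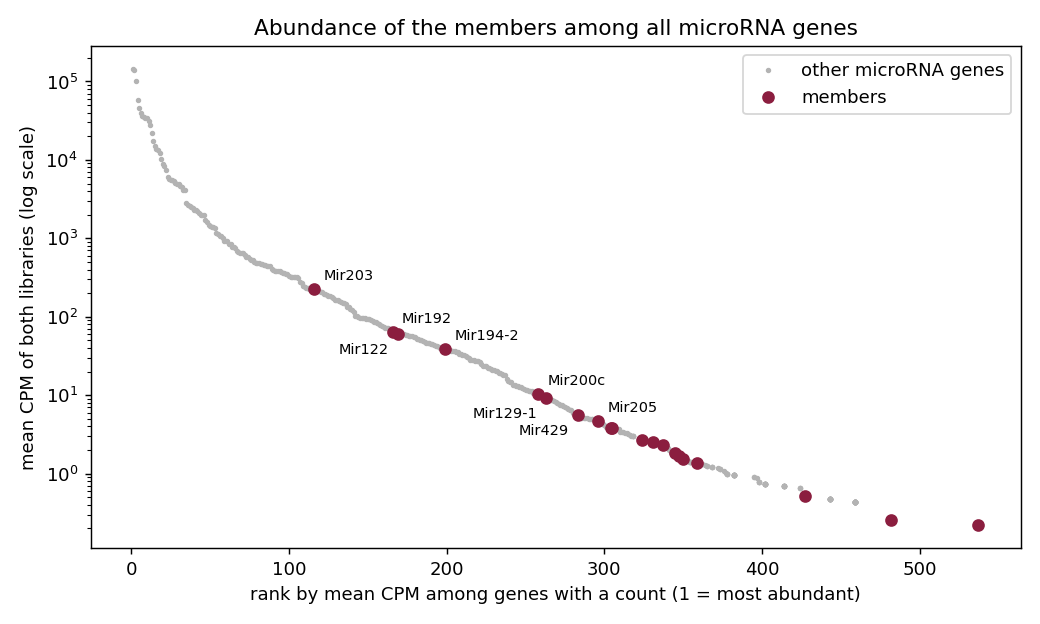
Mean CPM of both libraries (y axis, log scale) against rank for the 583 genes with a count, with the 20 members that have a count as large points. The members run from rank 116 for Mir203 to rank 537 for Mir194-1, mostly in the lower part of the curve.

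The epithelial list was the largest, with 660 counts in replicate 1 and 376 in replicate 2, and Mir203 gave most of them. Its level was 338 CPM (313 to 365) and 164 CPM (148 to 182), a mean of 251 ± 123 CPM (SD, n = 2). Mir203, a microRNA of differentiating keratinocytes (ENSMUSG00000065574.1, chr12:112130880-112130955, plus strand, in no other annotated gene on that strand), had 568 counts in replicate 1 and 354 in replicate 2. The count was above 10 in both libraries. This was 291 and 154 CPM, a mean of 223 ± 96.7 CPM (SD, n = 2). The ratio was 1.82-fold in favour of replicate 1 (exact binomial 95% interval 1.59 to 2.09), under the 2-fold minimum used for a call. Mir205, which marks basal cells of layered epithelia, had 14 and 5 counts, 7.18 and 2.18 CPM, a ratio of 3.18 (1.08 to 11.3). It lies on chromosome 1, inside an exon of 4631405K08Rik, a noncoding gene, and its mean count was too low for the test.

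The 5 genes of the miR-200 family lie in 2 clusters, and both had fewer counts in replicate 2. Mir200b, Mir200a and Mir429 lie within introns of Ttll10 on the minus strand of chromosome 4, Mir429 at chr4:156053905-156053987 also within an exon of Gm13648. Mir429 had 21 counts in replicate 1 and 1 in replicate 2, or 10.8 and 0.436 CPM, with a ratio of 23.9 whose exact binomial 95% interval, 3.84 to 988, is wide. Mir200a had 15 counts and 0 (7.69 CPM in replicate 1), 5.69-fold higher in replicate 1 when the 0 is set at the floor of 3 counts. Such a ratio leaves out counting error in the replicate 1 count, so it is not a lower limit. Mir200b had 9 counts and 0, 3.41-fold higher on the same basis. The cluster as a whole thus had 45 counts in replicate 1 and 1 in replicate 2. Mir200c and Mir141, in an intron of the noncoding gene Gm15884 on chromosome 6, formed the second cluster. Mir200c (chr6:124718322-124718390) had 27 and 16 counts, 13.8 and 6.98 CPM, a ratio of 1.92 (0.997 to 3.81). Mir141 had 6 counts and 0, 2.27-fold higher in replicate 1 against the floor, again without counting error in the 6.

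By seed, the genes of miR-200b, miR-200c and miR-429 summed to 57 counts in replicate 1 and 17 in replicate 2, and those of miR-141 and miR-200a to 21 and 0. The second seed group, the last 2 family sequences printed above, thus had counts in replicate 1 alone. Without Mir203 the epithelial list had 47.2 CPM (38.03 to 57.9) and 9.60 CPM (6.02 to 14.5), a ratio of 4.76 (2.96 to 7.95). All 7 epithelial members had a lower CPM in replicate 2. Of all 583 genes with a count, 55.9% were lower in replicate 2.

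The liver list had 376 and 306 counts, and its members differed in direction. Its level was 193 CPM (174 to 213) in replicate 1 and 134 CPM (119 to 149) in replicate 2. Mir122 (ENSMUSG00000065402.1, chromosome 18, 65248861 to 65248926, in an exon of the noncoding gene AC157910.3) had 215 counts in replicate 1 and 25 in replicate 2. In CPM this was 110 and 10.9, a mean of 60.6 ± 70.2 (SD, n = 2), so that the spread exceeded the mean. Mir192 and Mir194-2, neighbours on the plus strand of chromosome 19 and known from liver, gut and kidney, went the other way. Mir192 (chr19:6264844-6264932) had 98 and 174 counts, 50.3 and 75.9 CPM, and was 1.56-fold higher in replicate 2 (1.21 to 2.02). Mir194-2 (chr19:6264643-6264728) had 63 and 106 counts, 32.3 and 46.3 CPM, and was 1.48-fold higher (1.07 to 2.05). Without Mir122 the list was thus 1.53-fold higher in replicate 2 (1.26 to 1.87).

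Mir194-2 had 0.643 counts per count of Mir192 in replicate 1 (0.461 to 0.891) and 0.609 in replicate 2 (0.474 to 0.780), so the pair kept its proportion within counting error. Mir194-1, the other locus of miR-194, had 0 and 1 counts, both at or under the floor. The sequence of miR-194-5p printed above is carried whole by both loci, and their hairpins share a stretch of 22 nt, the length of the mature strand. Reads of just that stretch cannot be placed, so the counts of Mir194-1 and Mir194-2 leave them out.

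**Figure D3:**
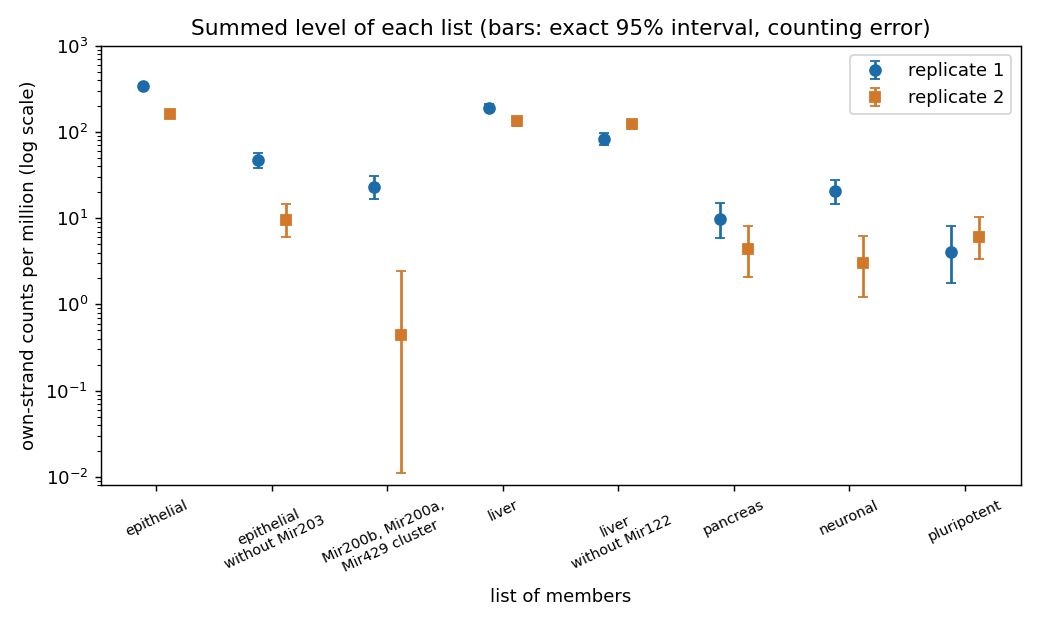
Own-strand CPM (y axis, log scale) summed over each list or sublist, with circles for replicate 1, squares for replicate 2 and bars for the exact 95% interval of counting error. The Mir200b, Mir200a and Mir429 cluster shows the widest gap, 23.1 against 0.436 CPM, while liver without Mir122 is higher in replicate 2.

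The pancreas list had 19 and 10 counts, 9.74 CPM (5.87 to 15.2) and 4.36 CPM (2.09 to 8.02), with overlapping intervals. Mir375, the microRNA of islet cells, had 9 counts in replicate 1 and 7 in replicate 2, or 4.61 and 3.05 CPM, a ratio of 1.46 (0.484 to 4.62). Mir217, of acinar cells, had 8 and 3 counts, and its cluster partners on chromosome 11 had less. Mir216a had 2 and 0, under the floor, and Mir216b 0 in both libraries. No difference was detectable for these genes at this depth.

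The neuronal list rested on a single family. Mir129-1 (chr6:29022619-29022691, in an exon of the noncoding gene Gm3294) had 31 counts in replicate 1 against 6 in replicate 2, or 15.9 and 2.62 CPM. Its ratio was 5.87 (2.41 to 17.2). Mir129-2, in an intron of Mir670hg, had 9 counts and 1, a ratio of 10.2 (1.42 to 449). The sequence of miR-129-5p is in both hairpins, which share a stretch of 26 nt, so reads confined to it are in neither count. The list's level was 20.5 CPM (14.7 to 27.9) and 3.05 CPM (1.23 to 6.29).

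The 3 Mir9 and 3 Mir124a genes had 0 counts in both libraries, which sets no limit on these microRNAs in muscle. The printed sequence of miR-9-5p is carried whole by Mir9-1, Mir9-2 and Mir9-3. The longest stretch shared with another microRNA gene is 33 nt for Mir9-1 and Mir9-2, 26 nt for Mir9-3 and 32 nt for each Mir124a gene. The labels give an upper size of 30 nt for the small RNA sequenced. A read of the mature strand cannot be assigned to 1 of these copies and would be set aside with the reads that aligned to several places.

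The pluripotent cell list had the lowest mean, though not the lowest level in replicate 2, with 8 and 14 counts, 4.10 CPM (1.77 to 8.08) and 6.11 CPM (3.34 to 10.2). Both libraries were at 0 for 10 of its 14 genes, against 73.5% of all genes, a share near the background. The Mir290 to Mir295 cluster of chromosome 7 had 1 count, at Mir293 in replicate 1, over 9 genes, and 0 in replicate 2. The Mir302 and Mir367 cluster of chromosome 3 (Mir302d at chr3:127545624-127545689) had 7 and 14 counts. Mir302d had 2 counts in replicate 1 and 6 in replicate 2, Mir302b 1 and 5, and Mir302a 4 and 3. Mir302c and Mir367, transcribed with them, had 0. The ratio for the cluster was 1.76 in favour of replicate 2, with an interval of 0.664 to 5.15 that holds both directions. Mir291a, Mir294 and Mir295, which share the seed of miR-302b and miR-302d, had 0 counts throughout.

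The zeros were also counted by shared sequence. A stretch of 20 nt or more also occurs in another, non-overlapping microRNA gene for 14 of the 37 members, and 8 of these had 0 counts in both libraries. Of the 23 members without such a stretch, 9 had 0: Mir216b, Mir290a, Mir290b, Mir292, Mir292b, Mir294, Mir295, Mir302c and Mir367. For these 9 the limit of 1.54 and 1.31 CPM holds, as far as copies among microRNA genes go. Over all genes, 89.8% of those that share a stretch had 0 counts and 57.7% of the others.

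The difference between the libraries was then tested gene by gene for the 295 genes with a mean of at least 10 counts. No condition is compared in this way. The test was a two-sided exact binomial test on counts scaled by TMM, with Benjamini-Hochberg adjustment over all 295 genes, a call needing an adjusted p under 0.05 and 2-fold. Of the 7 members tested, 3 were called, Mir122, Mir429 and Mir129-1, with fewer counts in replicate 2. Mir429 and Mir129-1 entered the test through replicate 1 alone, which fixes their direction, and with at least 10 counts in each library Mir122 alone was called. Of all genes tested, 14.2% were called, 11.5% lower and 2.71% higher in replicate 2. The median log2 ratio was −0.92 over the 7 members and −0.04 over all 295 genes. A member enters the test through the library where it is high, so neither this count nor this median describes all 37.

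Mir122 fell by 3.26 on the log2 scale from replicate 1 to replicate 2 (SE 0.302, adjusted exact p = 1.34e-43), or 9.78-fold without a prior count. Mir429 was lower by a log2 value of −4.03 (SE 1.22, adjusted exact p = 7.39e-06), on 1 count in replicate 2. Mir129-1 stood at −2.46 (SE 0.622, adjusted exact p = 2.07e-05). Those SE values cover counting error only. The dispersion used next was estimated from the same libraries that it serves to compare. It thus includes their difference, and the outcome is not an independent check. With edgeR's exact test and the dispersion estimated from both libraries, a biological coefficient of variation of 0.370, Mir122 alone was called (adjusted p = 0.0189). There Mir429 had an adjusted p = 0.079 and Mir129-1 an adjusted p = 0.452, and 2.37% of all genes were called. Mir203 and Mir192 had log2 ratios of −0.87 and 0.64 (adjusted exact p = 1.05e-18 and 0.000935) and missed the 2-fold minimum, as did Mir194-2 at 0.56 (adjusted exact p = 0.0262). Mir200c, at −0.92, missed both limits (adjusted exact p = 0.0782).

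**Figure D4:**
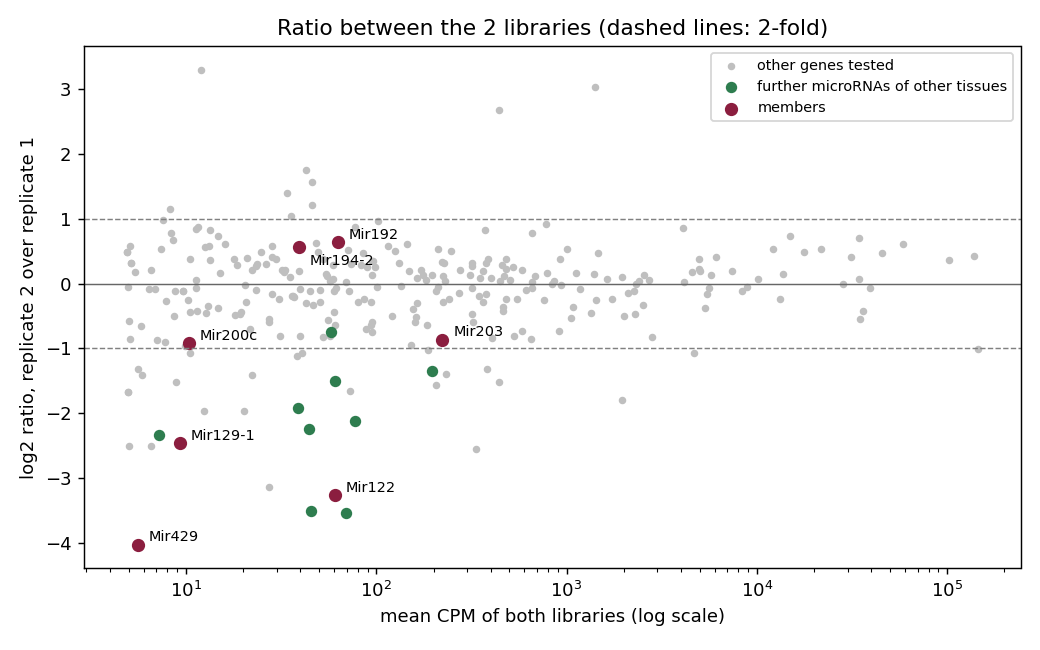
Log2 ratio of replicate 2 over replicate 1 (y axis) against mean CPM (x axis, log scale) for the 295 genes tested; members are large red points, further microRNAs known from other tissues green, and dashed lines mark 2-fold. Mir122, Mir429 and Mir129-1 lie below the lower line, Mir192 and Mir194-2 above 0.

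With every gene that had a count included, 583 genes, 7 of 20 members were called, all lower in replicate 2. Of all genes, 8.23% were called in either direction. The genes added were Mir200a (adjusted exact p = 6.21e-05), Mir200b (adjusted exact p = 0.00454), Mir129-2 (adjusted exact p = 0.0311) and Mir141 (adjusted exact p = 0.0392). Thus 4 of the 5 miR-200 family genes were called on this wider set, Mir200c being the exception. These 4 and Mir129-2 had 1 or 0 counts in replicate 2, and they entered through replicate 1, which fixes their direction. Mir429, Mir200a and Mir200b lie in 1 cluster and are not separate evidence. The test covers counting error only. With at least 10 counts asked of each library, 11.9% of all genes were called. The same 3 members were called with unscaled totals, with DESeq2 size factors and with edgeR's exact test at an assumed coefficient of variation of 0.2, against 14.6%, 13.2% and 9.15% of all genes. On counts of either strand Mir200a was called beside them, against 14.7%. With no fold minimum 6 of the 7 tested members passed, 4 of them lower in replicate 2, against 54.9% of all genes.

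Other microRNAs known from tissues outside muscle were counted beside the members, 19 of 21 listed being matched by name. Of these 19, 8 had more than 10 counts in each library, against 12.4% of all genes. The list was drawn up with earlier results of these data known, so its calls are a description. Of 9 tested, 8 were called lower in replicate 2, against 11.5% of all genes. With the estimated dispersion 2 remained, Mir182 and Mir183. The 8 were Mir182, Mir183 and Mir96, a cluster of sensory and epithelial cells, Mir34c of ciliated cells, Mir137, Mir138-1 and Mir138-2 of neurons, and Mir204 of pigment and secretory epithelia. Mir182 went from 249 counts in replicate 1 to 24 in replicate 2, and Mir138-1 from 247 to 64. Mir184, of the eye, was tested and not called, at 144 and 97 counts. The 2 names not matched were Mir7a-1 and Mir7a-2, while genes named Mir7-1 and Mir7-2 were present and left out of these counts. Mir7-1 had 114 counts in replicate 1 and 137 in replicate 2, a log2 ratio of 0.08, and was not called.

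Markers of other cell types were summed in the same way. The striated muscle markers, 10 of 10 with counts, summed to 27946 CPM in replicate 1 and 46569 CPM in replicate 2, and Mir126a of endothelium had 120880 and 156853 CPM. The smooth muscle markers Mir143 and Mir145a had 202581 and 97334 CPM in sum. The glial markers Mir338 and Mir219a-2 summed to 3075 and 859 CPM, nearly all from Mir338. Leukocyte markers, 4 of 5 matched, had 3151 and 2461 CPM, red cell markers 787 and 460 CPM and the 4 fibroblast markers 1492 and 1514 CPM. The leukocyte sum leaves out a gene named Mir146, because the list named Mir146a. Mir146 had 1024 and 650 counts, a log2 ratio of −0.84, and was not called. Among the 10 striated muscle markers, Mir208a, Mir208b and Mir499 were called higher in replicate 2 (log2 ratios of 3.30, 2.69 and 3.03). Mir208a had 4 counts in replicate 1. Mir206, which gives most of that sum, had 0.70 and, like the rest of the list, was not called. Within the other sums, Mir142 and Mir223 of leukocytes were called lower in replicate 2 (log2 ratios of −1.32 and −1.52), while Mir155 and Mir150 had 0.16 and 0.04. Mir199b of fibroblasts was called lower at −1.66, while Mir214, which gives most of that sum, had 0.15. None of the matched markers was at 0 in either library. The part of these differences in the result for the members was not tested.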

How the data were processed

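Small RNA was sequenced from 2 libraries of 1 group. The deposited values are raw read counts per microRNA gene, for either strand, the own strand and the opposite strand, made by the authors on mm10 with GENCODE mouse release 21, per the notes that accompany the libraries; which aligner and counter were used is not given in the sources used here. Rows that name no gene were left out of library sizes: unmapped reads made up 7.48% and 9.83%, reads aligned to several places 70.1% and 72.3%, and reads outside genes 1.73% and 1.90% of 9410562 and 14377558 reads listed. CPM was computed over own-strand microRNA counts. Names, positions and hairpin sequences came from GENCODE and matched for all 2202 genes; mature sequences came from RefSeq. Log2 ratios use a prior of 0.5 counts.

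Libraries were compared by a two-sided conditional exact binomial test with TMM scaling, checked on simulated data; the quasi-likelihood test of edgeR needs a second group. Ratios against 0 use 3 counts for the library at 0 and leave out counting error in the other library. The members and lists were chosen with earlier results of these data known. Members with more than 3 counts in a library are given with both counts, those with more than 10 singly, and the rest by list. Mir146a, Mir7a-1 and Mir7a-2 were not matched by name, and the genes named Mir146, Mir7-1 and Mir7-2 were left out of the lists. Analyses ran in Python 3.11.15 (scipy 1.17.1, numpy 2.4.6, pandas 2.3.3, matplotlib 3.10.9) and R 4.3.3 (DESeq2 1.42.0, edgeR 4.0.16).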

Additional observations from a re-analysis of the deposited data

Results flagged for a closer look

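Reads that aligned to several places lie outside the gene counts used and made up 70.07% of reads listed in replicate 1 and 72.33% in replicate 2. Opposite-strand reads at the 30 members with no microRNA gene on that strand numbered 18 in replicate 1 and 7 in replicate 2, above the limit of 3 counts, at Mir203, Mir200a and Mir122.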

How the results depend on the processing

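No paired analysis was possible because there is 1 group of 2 libraries. The number of members with more than 3 counts was 8 in each library and 17 in either, and ran from 10 to 15 when a replicate was left out; 15 came without replicate 2. For more than 10 counts it was 5 in each and 9 in either, and ran from 5 to 9, with 9 without replicate 2. Over all reads listed, the epithelial, liver, pancreas, neuronal and pluripotent lists had 48.1, 30.6, 1.36, 2.37 and 0.912 CPM. Without the 10 most abundant genes in the total, the epithelial, liver, pancreas, neuronal and pluripotent lists had 771, 498, 21.7, 36.6 and 15.4. On counts of either strand, the epithelial, liver, pancreas, neuronal and pluripotent lists had 345, 224, 9.505, 12.3 and 7.05. The library totals were smaller there, 1485632 and 1607502 counts, which raises every CPM. The members called between the libraries numbered 3, and 3 with unscaled totals, DESeq2 size factors or an assumed coefficient of variation of 0.2. They numbered 1 with at least 10 counts in each library, 7 with no filter on low counts, 6 with no fold minimum and 1 with the estimated dispersion. No direction of the 7 tested members turned under the settings that gave them a value; Mir429 and Mir129-1 had none with at least 10 counts in each library. DESeq2 size factors moved the median log2 ratio of all genes from −0.04 to 0.06.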
